A study of Arabidopsis thaliana with 18 samples.

Results

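A run of 150 consecutively numbered probe sets on the Arabidopsis ATH1 array covers the chloroplast and mitochondrial genomes, from the one just before *nad4L* up to that of *psbK*. They were taken here by number alone, out of 22746 probe sets tested. The array's annotation table gave a chloroplast gene for 77 of them (76 genes, *rps12* having 2 probe sets) and a mitochondrial gene for 13. A further 5 carried a nuclear locus tag of the AT2G07 series, 10 carried other nuclear genes such as *YAB5*, and 45 had no gene listed. The block is therefore not purely organellar, and the counts below refer to the 90 probe sets with a named organelle gene unless another set is stated. The 77 were called chloroplast because their gene identifier was that of a RefSeq chloroplast gene, so that match is part of the definition. The 13 mitochondrial ones were taken by gene symbol, and 7 of them had a RefSeq mitochondrial symbol.

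Signals came from roots of 2 wild-type ecotypes, Columbia (Col-0) and Wassilewskija (WS), each grown at 3 angles of the growth plate (Agp). Seedlings grew upright for 3 days in continuous light and then spent 5 days tilted backward (Agp 45°), tilted forward (Agp 135°) or still upright (Agp 90°), so that all were 8 days old at harvest. Shoots were cut away, 5 roots were used for each array, and each of the 6 groups had 3 arrays. No source states that these arrays came from separate plates, so the p-values measure the spread between arrays, and fewer plastids or root cells of a kind cannot be told apart from less RNA in each.

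Both organelles keep a small genome of bacterial ancestry. The chloroplast genome encodes subunits of the photosystems, the cytochrome b6f complex, the ATP synthase and the NDH complex (an electron-transfer complex related to respiratory complex I), together with ribosomal proteins and the core of the plastid RNA polymerase. Most of its genes are read as clusters into long shared transcripts, and non-green plastids of roots transcribe them too. The mitochondrial genome encodes subunits of the respiratory chain and proteins that attach heme to cytochrome c, and a large copy of mitochondrial DNA sits on chromosome 2 of Columbia, where the AT2G07 loci lie. Organelle transcripts mostly lack the stable poly(A) tail that the labelling reaction of 3′ arrays primes from, and the probes were designed on the Columbia sequence, so a difference in RNA level between ecotypes cannot be told apart from one in probe match.

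Levels are MAS5 signals, a linear intensity scaled to the same trimmed mean on every array, and differences are on the log2(signal + 32) scale after quantile normalization, which understates the change of dim probe sets. The actin control, read at its 3′ and 5′ ends, gave a 3′/5′ signal ratio of 3.85 to 6.06 on Col-0 arrays (median 4.22) and 3.86 to 6.05 on WS arrays (median 4.26). It was highest on Col-0 Agp 90° replicate 2 and WS Agp 90° replicate 3. The check of the tissue was limited, because 1 of 10 root markers had a probe set with a single gene. This was *EXPA7*, an expansin of root hair cells, which averaged 468 ± 118 in Col-0 and 324 ± 66.1 in WS (SD, n = 9 arrays each). It was higher in Col-0 (averaged log2 difference 0.44, limma adjusted p = 0.0315), the opposite direction to most chloroplast members, and its part in the results was not tested.

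Chloroplast transcripts were mostly lower in Col-0 than in WS roots. With the difference averaged over the 3 angles (9 arrays against 9), 42 of 77 chloroplast probe sets were lower in Col-0, 7 were higher and 28 did not pass the test (limma, Benjamini-Hochberg adjusted p under 0.05 over all probe sets). Over the whole array 16% of probe sets were lower and 12.9% higher. The median log2 difference was -0.35 over the chloroplast probe sets, against -0.03 over all probe sets. Of the 13 mitochondrial probe sets 4 were lower and 0 were higher, with a median of -0.27 and, at an unadjusted p under 0.05, 8 lower and 0 higher. The unadjusted counts have no array-wide share beside them and are a description. The count over both genomes lay between 49 and 58 when any array was left out and was 47 without both arrays of high actin ratio.

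**Figure D1:**
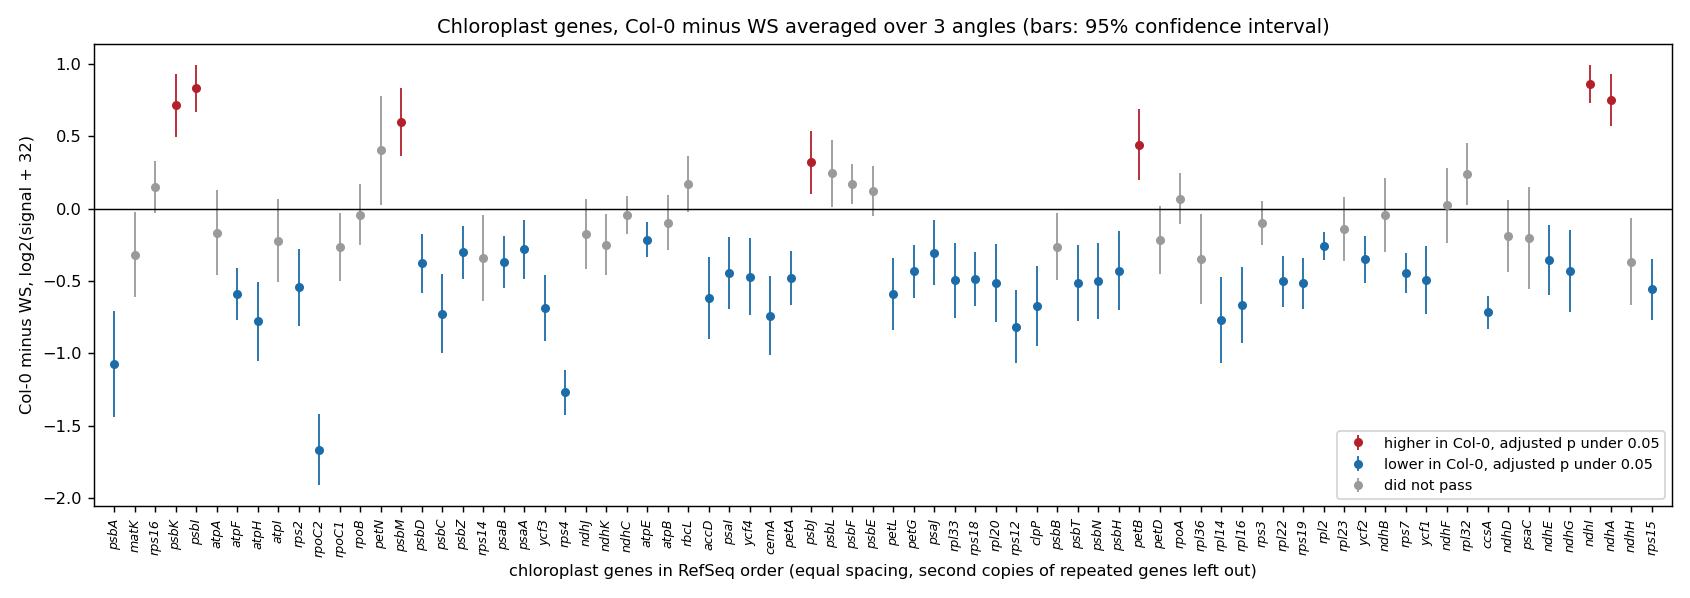
Col-0 minus WS difference on the log2(signal + 32) scale for each chloroplast gene with a named probe set, averaged over the 3 angles, in RefSeq gene order with equal spacing; bars are 95% confidence intervals from limma and colours give the call. Most points lie below 0, from -1.67 for *rpoC2*, while the neighbours *psbK* and *psbI* and the neighbours *ndhI* and *ndhA* lie above it.

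Individual arrays showed the same shift with some overlap. The median deviation of the 77 chloroplast probe sets from their mean over 18 arrays ran from -0.41 to -0.01 on the Col-0 arrays (median -0.14) and from -0.02 to 0.26 on the WS arrays (median 0.18). For the mitochondrial probe sets it ran from -0.51 to 0.01 on Col-0 arrays and from -0.02 to 0.32 on WS arrays. Col-0 Agp 90° replicate 2, one of the arrays with a high actin ratio, had the lowest value for both genomes, whereas WS Agp 90° replicate 3, with an equally high ratio, had the highest chloroplast value. The 25S rRNA control ran from 7454 to 11265 on Col-0 arrays (median 9415) and from 8529 to 13718 on WS arrays (median 10587). The Cre control, a transcript added during the assay and not made by the plant, ran from 6308 to 11949 on Col-0 arrays (median 8236) and from 7799 to 16399 on WS arrays (median 11650). Both medians were lower for Col-0, as for the chloroplast, and their part in the result was not tested. Residuals of chloroplast probe sets, left after removing the group means, correlated with each other (mean Pearson r 0.27 over the pairs of 77 probe sets on 18 arrays). The same mean was 0.39 among the 20 ribosomal protein probe sets, 0.12 among the 13 mitochondrial ones and 0.00034 over all probe sets. Among 5 nuclear photosystem and light-harvesting probe sets it was 0.84, so such correlation was not particular to the organelle probe sets. These pairs share their arrays, so the values are a description.

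**Figure D2:**
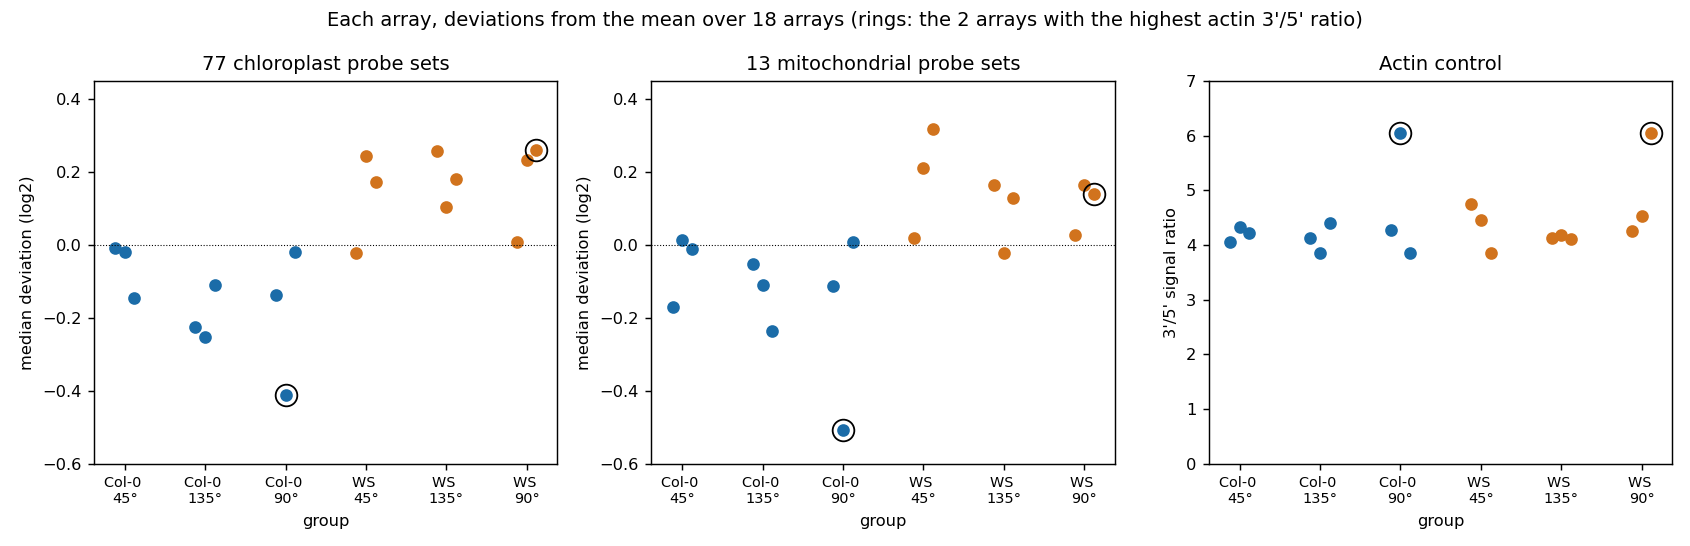
Median deviation of the chloroplast (left) and mitochondrial (middle) probe sets from their mean over all arrays, in log2 units, and the actin 3′/5′ signal ratio (right), each point being 1 array. The Col-0 arrays lie mostly below 0 and the WS arrays mostly above it, and rings mark the pair of arrays with the highest actin ratios, 6.06 and 6.05.

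The largest difference among the members was that of *rpoC2*, which encodes a catalytic subunit of the plastid RNA polymerase. Its signal was 197, 170 and 137 in Col-0 at Agp 45°, 124, 155 and 159 at Agp 135°, and 174, 105 and 233 at Agp 90°. In WS it was 435, 538 and 580 at Agp 45°, 570, 545 and 501 at Agp 135°, and 507, 687 and 747 at Agp 90°. All 9 Col-0 arrays lay below all 9 WS arrays, and the averaged log2 difference was -1.67 (standard error 0.115, adjusted p = 1.3e-08), a signal 3.17 times lower in Col-0. The other subunits of the same enzyme did not pass the test. *rpoC1* differed by -0.27 (95% confidence interval -0.50 to -0.03, adjusted p = 0.0846), *rpoB* by -0.04 (-0.25 to 0.17) and *rpoA* by 0.07 (-0.11 to 0.25). *rpoB*, *rpoC1* and *rpoC2* lie next to each other and are known to be transcribed together, but *rpoB* was dim, averaging 23.9 in Col-0 and 29.6 in WS.

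Ribosomal protein genes of the chloroplast were the largest class and had the most lower calls, though not the highest share of them. Of 20 probe sets 14 were lower in Col-0, 0 were higher and 6 did not pass, with a median log2 difference of -0.50. *rps4*, a protein of the small subunit, had a signal of 1574 to 2388 in Col-0 (median 1908) and 4177 to 5346 in WS (median 4615). The ecotypes did not overlap, and the log2 difference was -1.27 (standard error 0.0734, adjusted p = 1.63e-09). The 2 probe sets of *rps12*, whose parts lie far apart on the genome and are joined after transcription, both passed, with -0.82 and -0.60. Within the long ribosomal cluster, *rpl14* (-0.77), *rpl16* (-0.67), *rpl22* (-0.50), *rps19* (-0.51) and *rpl2* (-0.26) were lower in Col-0, while *rps3* between them had -0.10 (adjusted p = 0.341) and *rpl23* at its end -0.14 (adjusted p = 0.351). *rpl33*, *rps18* and *rpl20*, which follow each other in RefSeq gene order, were all lower, by -0.49, -0.49 and -0.51.

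**Figure D3:**
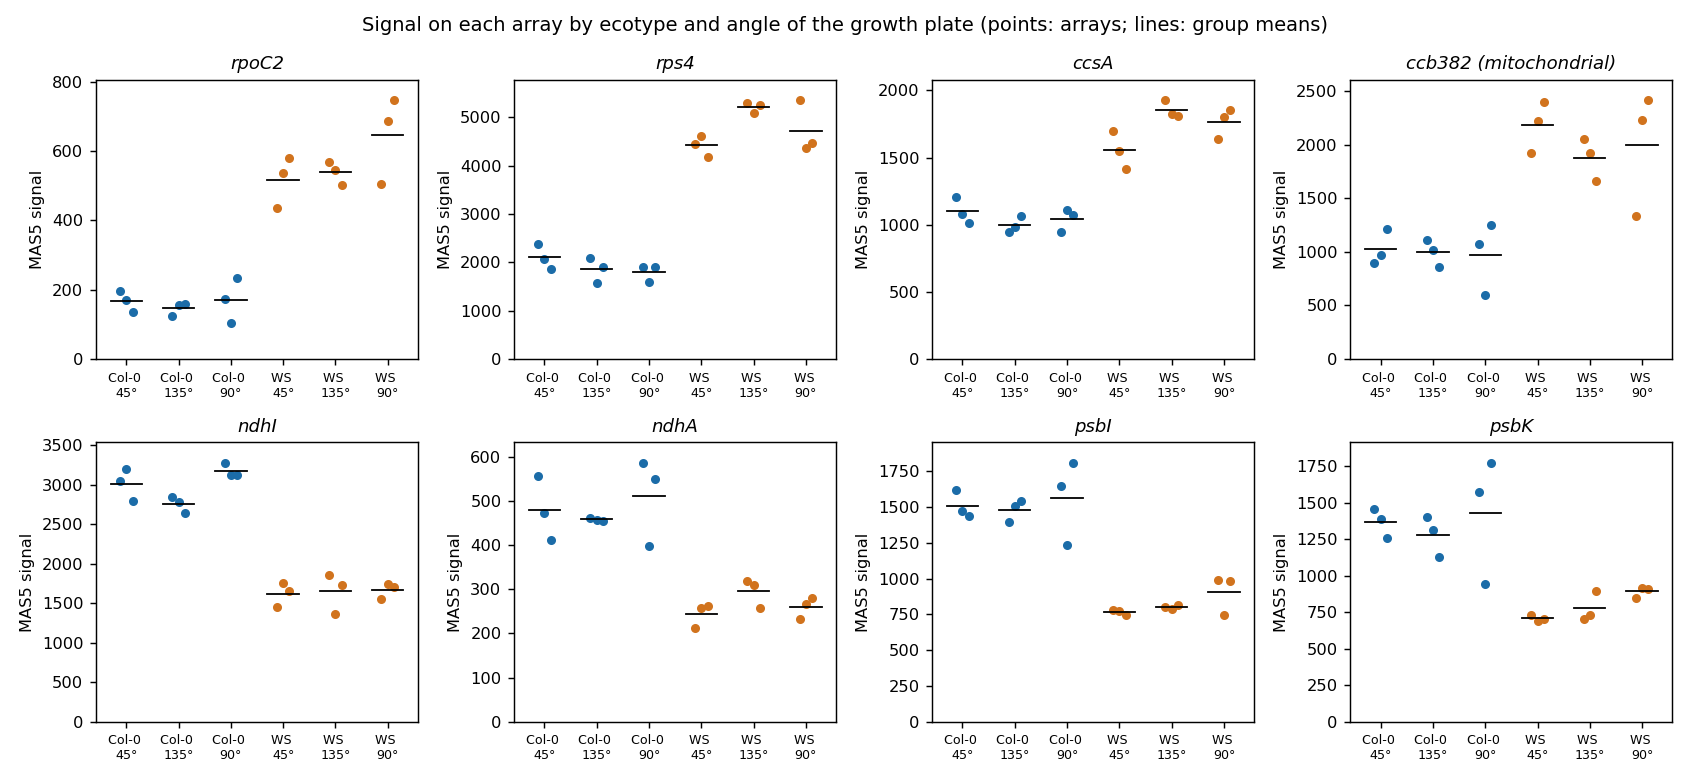
MAS5 signal on each array for 8 members, by ecotype and angle of the growth plate (3 arrays per group; points are arrays, lines are group means, each axis starts at 0). The Col-0 arrays lie below every WS array for *rpoC2*, *rps4*, *ccsA* and the mitochondrial *ccb382*, and above every WS array for *ndhI*, *ndhA*, *psbI* and *psbK*.

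Genes of photosystem I and its assembly were mostly lower in Col-0, while those of photosystem II were called in both directions. For photosystem I, 6 of 7 probe sets were lower in Col-0 and 0 were higher, among them *psaB* (-0.37), a reaction centre protein, and *ycf3* (-0.69), an assembly factor. For photosystem II, 7 of 15 were lower and 4 were higher. *psbA*, which encodes the D1 reaction centre protein, had a signal of 379 to 844 in Col-0 (median 546) and 695 to 1833 in WS (median 1253). These ranges overlapped, and the averaged log2 difference was -1.08 (standard error 0.172, adjusted p = 0.000163). *psbC*, an antenna protein of the core, was also lower (-0.73).

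The 4 members of photosystem II that were higher in Col-0 were *psbI*, *psbK*, *psbM* and *psbJ*, which encode small subunits, but *psbT* (-0.51), *psbH* (-0.43) and *psbZ* (-0.30), small subunits as well, were lower. *psbI* had a signal of 1238 to 1807 in Col-0 (median 1506) and 743 to 988 in WS (median 791), with a log2 difference of 0.83 (standard error 0.0759, adjusted p = 3.67e-07). Its neighbour *psbK* had 940 to 1770 in Col-0 (median 1390) and 692 to 917 in WS (median 733), a log2 difference of 0.72 (adjusted p = 5.4e-05). The ecotypes did not overlap for either gene. *psbM* (0.60) and *psbJ* (0.32) passed as well, but their arrays overlapped, and the neighbours of *psbJ* in the *psbE* cluster, *psbL* (0.24), *psbF* (0.17) and *psbE* (0.12), did not pass.

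In the NDH complex, 2 of 11 probe sets were higher in Col-0, 2 were lower and 7 did not pass. These shares, 18.2% each way, were near those over all probe sets, 12.9% higher and 16% lower. The higher pair were the neighbours *ndhI* and *ndhA*. *ndhI*, an iron-sulfur subunit, had a signal of 2647 to 3274 in Col-0 (median 3053) and 1359 to 1861 in WS (median 1705), with no overlap and a log2 difference of 0.86 (standard error 0.0617, adjusted p = 2.13e-08). *ndhA*, a membrane subunit, had 397 to 585 in Col-0 (median 462) and 212 to 320 in WS (median 262), again with no overlap, and a log2 difference of 0.75 (adjusted p = 3.57e-06). *ndhG* (-0.43) and *ndhE* (-0.36), which follow in the same cluster, were lower in Col-0.

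In the cytochrome b6f complex, *petL* (-0.59), *petA* (-0.48) and *petG* (-0.43) were lower in Col-0 and *petB* (0.44, adjusted p = 0.00872), which encodes cytochrome b6, was higher. *petB* follows *psbB*, *psbT* and *psbH* in one cluster, of which *psbT* (-0.51) and *psbH* (-0.43) were lower and *psbB* did not pass (-0.26, adjusted p = 0.0846). In the ATP synthase 3 of 6 were lower and 0 higher, and *atpH*, which encodes the subunit of the rotating ring, had 95.2 to 189 in Col-0 (median 160) and 201 to 426 in WS (median 265), with no overlap (-0.78, adjusted p = 0.000219). Among 8 other genes 6 were lower and 0 higher. These were led by *cemA* (-0.74), an envelope membrane protein, *ccsA* (-0.72), a factor of cytochrome c synthesis, *clpP* (-0.67), a protease subunit, and *accD* (-0.62), a subunit of acetyl-CoA carboxylase. *rbcL*, the large subunit of Rubisco, did not pass (0.17, 95% confidence interval -0.03 to 0.36, adjusted p = 0.192).

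Of 74 pairs of neighbouring chloroplast genes with a probe set each, 59 had log2 differences of the same sign, 28 were called in the same direction and 4 in opposite directions. The same-sign share was 79.7% of neighbouring pairs, against 66.3% of all pairs of the 76 genes, of which 60 had a negative difference. The opposite pairs were *psbM* and *psbD*, *petA* and *psbJ*, *psbH* and *petB*, and *ndhG* and *ndhI*. Across the 74 pairs Pearson's r between the differences was 0.37, given as a description because neighbouring pairs share genes and often a transcript.

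Among the 13 mitochondrial probe sets of the block, that of *ccb382*, which belongs to the cytochrome c maturation machinery, had the largest difference. Its signal was 594 to 1251 in Col-0 (median 1018) and 1335 to 2412 in WS (median 2052). The ecotypes did not overlap, and the log2 difference was -1.01 (standard error 0.142, adjusted p = 4.26e-05). *ccb452* of the same machinery (-0.34), *nad4* of complex I (-0.27) and *cox2* of complex IV (-0.29) were also lower in Col-0. The other 9 did not pass, including *nad9* (-0.23, adjusted p = 0.0946), and 7 of the 13 averaged a signal below 100. Of the 5 AT2G07 loci 1 was lower in Col-0, AT2G07708, with 127 to 297 in Col-0 (median 242) and 346 to 533 in WS (median 439), no overlap and a log2 difference of -0.88 (adjusted p = 4.33e-05).

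Another 16 probe sets with a mitochondrial gene name lay outside the block. In Col-0 6 of these were lower and 1 was higher, against 16% and 12.9% of all probe sets. *cox1* of complex IV had -1.26 (adjusted p = 1.35e-06), a probe set shared by *atp1* and AT2G07698 had -0.61 and one of 2 for *nad5* had -0.60. The *nad1* probe sets disagreed, since 2 were lower (-0.42 and -0.37), 1 was higher (0.74) and the rest did not pass. Those that passed were dim, with mean signals of 68.9 and 52.6 for the lower ones and 53.1 for the higher one. Of the 45 probe sets of the block with no gene listed, 3 were higher and 3 lower in Col-0, with a median of -0.06. Both counts were below the array-wide shares. Of the block's 10 other nuclear genes 2 were higher and 2 lower, with a median of 0.04, counts too small to set apart from those shares.

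The difference between ecotypes was also tested at each angle, on separate arrays. At Agp 45°, 8 of the 90 organelle probe sets were lower in Col-0 and 5 were higher, against 5.9% and 7.06% of all probe sets. At Agp 135°, 29 were lower and 5 higher, against 6.3% and 7.19%. At Agp 90°, 19 were lower and 4 higher, against 6.36% and 6.76%. The higher counts were not above the array-wide share at any angle, and the lower count at Agp 45° was little above it. The chloroplast median was -0.21 at Agp 45°, -0.45 at Agp 135° and -0.40 at Agp 90°. Under the thresholds of the study's methods, which ask for a change of more than 2-fold and p under 0.05 before adjustment, 4 of the 90 were altered at each angle, against 2.69% of all probe sets at Agp 45°, 2.75% at Agp 135° and 2.71% at Agp 90°.

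These counts depended on single arrays and on the groups in the fit. With only the groups compared, the count was 20 at Agp 45° (7 higher, 13 lower) and 7 at Agp 90° (2 higher, 5 lower). At Agp 90° the count was 14 (6 higher, 8 lower) without Col-0 replicate 2, 13 without WS replicate 3, 14 without WS replicate 2 and 35 without Col-0 replicate 3. The chloroplast median was -0.23 without Col-0 replicate 2. Without both arrays of high actin ratio the count at Agp 90° was 10 (5 higher and 5 lower) and the median -0.13. At Agp 135° it was 19 without WS replicate 1, 22 without Col-0 replicate 1 and 22 without Col-0 replicate 2.

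Agreement between the angles rested on different arrays. In 53 of 77 chloroplast probe sets the log2 difference was negative at all 3 angles, against 30.6% of all probe sets, and in 12 it was positive at all 3, against 22.1%. For the mitochondrial probe sets these counts were 9 and 1 of 13. By the adjusted p, 4 chloroplast probe sets were lower at every angle (*rpoC2*, *rps4*, *ccsA* and *rps7*) and 4 were higher at every angle (*ndhI*, *ndhA*, *psbI* and *psbK*), against 2.4% and 4.33% of all probe sets. Among mitochondrial genes *ccb382* was lower at every angle. All 9 Col-0 signals lay below all 9 WS signals for 8 chloroplast probe sets, which were *rpoC2*, *rps4*, *ccsA*, *cemA*, *atpH*, *rpl22*, *rps19* and *rpl2*, and above them for 4, against 2.81% and 4.94% of all probe sets. By either measure the 4 higher of 77 chloroplast probe sets were near the array-wide share.

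Several of the calls at 1 angle were lost when an array was left out or the fit was changed. *psbK* lost its call at Agp 135° without WS replicate 1 (adjusted p = 0.0716), WS replicate 2 (0.0605), Col-0 replicate 1 (0.0675) or Col-0 replicate 2 (0.0576). At Agp 90° it was lost without any array but Col-0 replicate 2, with adjusted p from 0.0747 to 0.165. *ndhA* lost its call at Agp 135° without WS replicate 3 (adjusted p = 0.0747). *ccb382* lost its call at Agp 90° without both arrays of high actin ratio (log2 difference -0.57, adjusted p = 0.143) and also with only the groups compared in the fit (-1.04, adjusted p = 0.111). That fit also lost the calls of *psbI* (0.75, adjusted p = 0.0535) and *psbK* (0.59, adjusted p = 0.199) at Agp 90°. At Agp 45° *psbA* had a log2 difference of -1.06 (adjusted p = 0.0268) that was lost without WS replicate 1 (0.0906), WS replicate 2 (0.0612), Col-0 replicate 1 (0.0796) or Col-0 replicate 2 (0.0837).

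In the comparisons of growth plate angles 1 organelle probe set passed the adjusted test. In WS at Agp 45° against Agp 90°, *psbM*, a small subunit of photosystem II, fell, and the other 89 organelle probe sets did not pass the test. Over the whole array 0.985% of probe sets were altered, so 1 of the 90 was near the array-wide share and is not read as a result about the members. The median log2 fold change of the 90 probe sets was -0.05, and before adjustment 5 had fallen and 0 had risen at p under 0.05. Unadjusted counts of this kind include chance passes and, here and below, are not read as a trend of the members. Under the methods' thresholds *psbM* was again the only one, against 0.224% of all probe sets.

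The signal of *psbM* was 4926, 3581 and 4020 in WS at Agp 45°, 6983, 5361 and 7435 at Agp 135°, and 8035, 8381 and 10228 at Agp 90°. The arrays at Agp 45° lay below those at both other angles. The log2 fold change at Agp 45° against Agp 90° was -1.11 (standard error 0.191, adjusted p = 0.0102), a signal 2.16 times lower, and it passed whichever of these 6 arrays was left out (adjusted p from 0.0256 to 0.0475). At Agp 135° against Agp 90° it was -0.45 and did not pass (adjusted p = 0.422).

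In Col-0 the signal of *psbM* was 8725, 7020 and 10694 at Agp 45°, 8120, 9442 and 11108 at Agp 135°, and 11607, 5565 and 8551 at Agp 90°. These groups overlapped, and the log2 fold change was 0.07 at Agp 45° (adjusted p = 0.977) and 0.23 at Agp 135° (adjusted p = 0.869). The change at Agp 45° in WS minus that in Col-0 was -1.18 (95% confidence interval -1.75 to -0.61). This had an unadjusted p of 0.000514 but did not pass the adjusted test (adjusted p = 0.485), so a difference between the ecotypes in this response was not established. Between ecotypes *psbM* was higher in Col-0 at Agp 45° (1.16, adjusted p = 0.000544) and at Agp 135° (0.66, adjusted p = 0.0304), and at Agp 90° the difference was -0.02 (95% confidence interval -0.42 to 0.39). The call at Agp 135° was lost without WS replicate 1 (adjusted p = 0.0513), WS replicate 2 (0.131), Col-0 replicate 2 (0.0828) or Col-0 replicate 3 (0.108), and also with no quantile normalization (log2 difference 0.54, adjusted p = 0.148).

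**Figure D4:**
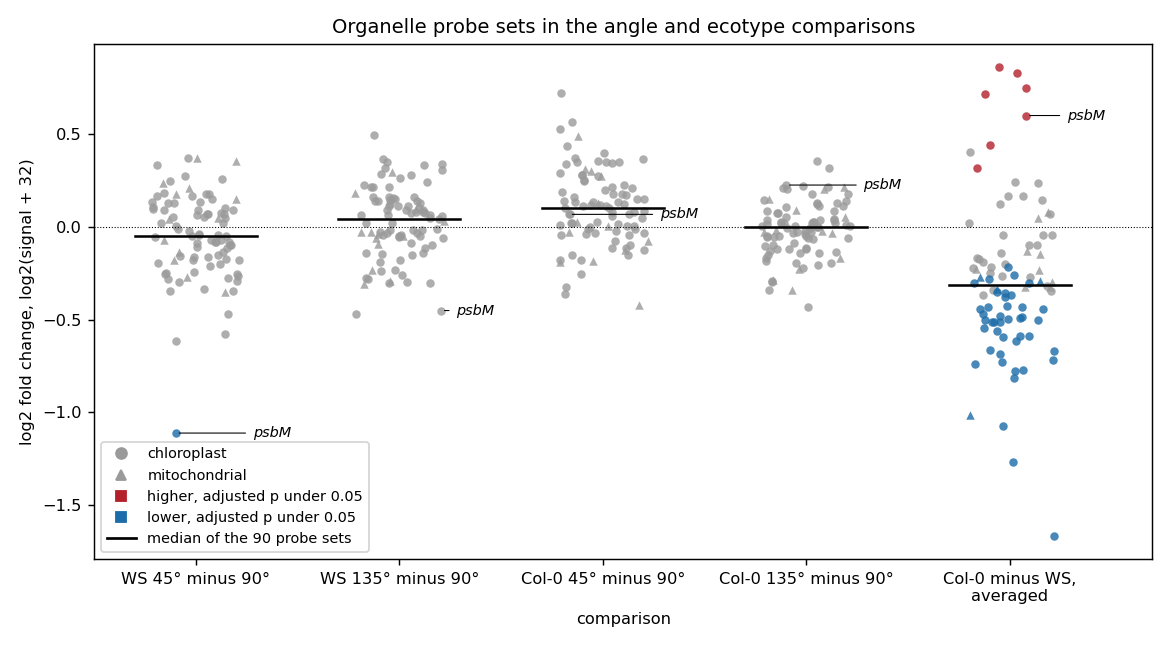
Log2 fold change of the 90 named organelle probe sets in the 4 angle comparisons and in the ecotype comparison averaged over the angles; each point is 1 probe set, lines are medians, and colours mark an adjusted p under 0.05. The angle comparisons centre near 0 with *psbM* in WS at Agp 45° standing apart at -1.11, and the ecotype comparison centres at -0.31.

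In the other angle comparisons 0 of the 90 organelle probe sets passed limma's adjusted test. In WS at Agp 135° against Agp 90° the median log2 fold change was 0.05, and before adjustment 1 probe set was higher and 1 lower at p under 0.05. In Col-0 at Agp 45° the median was 0.10, with 7 higher and 1 lower before adjustment, and the largest of these was *psbN* (0.72, adjusted p = 0.41). In Col-0 at Agp 135° the median was near 0, and 0 passed at an unadjusted p under 0.05. Over all probe sets 0.0528% were altered in WS at Agp 135°, 0.022% in Col-0 at Agp 45° and 0% in Col-0 at Agp 135°. Under the methods' thresholds 0 of the 90 were altered in these comparisons, against 0.171%, 0.0879% and 0.00879% of all probe sets.

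The interaction of ecotype with angle tests whether the change in WS differed from that in Col-0. For both angles 0 organelle probe sets and 0% of all probe sets passed limma's adjusted test. At an unadjusted p under 0.05, 1 organelle probe set was positive and 4 were negative at Agp 45°, where the median was -0.13, and 0 were positive and 1 negative at Agp 135°, where it was 0.05. *petL* had -0.87 at Agp 45° (adjusted p = 0.546) and *cox2* -0.67 (adjusted p = 0.56).

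Nuclear genes that work with these products did not all follow them. The list of nuclear photosystem and light-harvesting genes also held *ATPC1*, a subunit of the chloroplast ATP synthase. Of its 5 genes with a single-gene probe set (34 listed), 0 passed the ecotype test averaged over the angles in limma, 0 had an unadjusted p under 0.05, and their median log2 difference was 0.16. Their summed signal was 2869 to 5439 on Col-0 arrays (median 4551) and 3239 to 4469 on WS arrays (median 3614). Of the 14 markers of green shoot tissue 1 had such a probe set, *RCA* (Rubisco activase), with 1011 ± 284 in Col-0 and 875 ± 219 in WS (SD, n = 9 each, adjusted p = 0.523). The part of any shoot tissue left on the roots in the results above was not tested.

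Of 8 probe sets for nuclear subunits of the respiratory chain, 2 were lower in Col-0 and 1 was higher, counts too small to set apart from the 16% and 12.9% of all probe sets. *CYTC-2*, a cytochrome c, averaged 1798 ± 199 in Col-0 and 1282 ± 233 in WS (log2 difference 0.48, adjusted p = 0.00067), and the lower pair were *SDH2-2* (-0.17) of complex II and AT3G15640 (-0.15). Of 4 genes of alternative respiration and mitochondrial stress, *NDB2* (-0.44, adjusted p = 2.2e-05) and *NDB1* (-0.38, adjusted p = 0.00055), which encode alternative NAD(P)H dehydrogenases, were lower in Col-0. The other 2, *NDB4* (0.001) and AT2G21640 (0.10), did not pass, and 4 genes are too few to set beside the 16% of all probe sets that were lower. Both nuclear genes for organelle RNA polymerases or RNA decay with such a probe set (12 listed) had differences that did not pass (0.03 and 0.28). In the angle comparisons 0 genes of these lists passed limma's adjusted test. At an unadjusted p under 0.05 2 probe sets were higher and 2 lower in WS at Agp 45°, 1 was lower in WS at Agp 135°, and 0 passed in Col-0 at either angle.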

How the data were processed

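RNA from roots was labelled from 100 ng of total RNA with a 3′ IVT kit and hybridised to 18 ATH1 arrays, 3 for each of 6 groups. The deposited values are MAS5 signals, a linear intensity that the authors made in Expression Console from Affymetrix (version not given in the sources used here). The authors ran their own tests on RMA values from the raw images, which were not used here. From the deposited signals, log2(signal + 32) was taken and quantile normalized, 64 control probe sets were removed, and 6 group means were fitted over 22746 probe sets with limma 3.58.1 in R 4.3.3 (moderated test, Benjamini-Hochberg adjustment over all probe sets, threshold 0.05). The 3 ecotype differences, their average, the 4 angle differences and 2 interactions were tested. The precision is limited by 3 arrays per group. Replicate numbers were not used to pair the arrays in the main fit, because no source says what they mean. Members and gene lists were chosen with earlier results of these data known. Genes were named by a rule: the 5 largest rises and falls per comparison, the brightest and most variable members of each class, and listed nuclear genes that passed. Neighbours in a cluster and genes that did not pass were named after their values were seen. Nuclear genes were read only from probe sets with a single gene. Alternatives were no quantile normalization, other pseudocounts, a filter on dim probe sets, an intensity trend, a replicate block, fits of only the groups compared, and leaving out arrays.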

Additional observations from a re-analysis of the deposited data

How the results depend on the processing

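No direction was reversed under the alternatives run. At Agp 135° the chloroplast median of the difference between Col-0 and WS was -0.304 with a pseudocount of 100, against -0.446 as reported. With only the groups compared in the fit, the count of altered organelle probe sets was 20 at Agp 45° (13 as reported) and 7 at Agp 90° (23 as reported). Without both arrays of high actin ratio the count at Agp 90° was 10 and the median -0.125 (-0.398 as reported). When 1 array was left out at a time, the count ranged from 9 to 13 at Agp 45°, from 19 to 28 at Agp 135°, from 13 to 35 at Agp 90° and from 49 to 58 for the average over the angles. The chloroplast median then ranged from -0.26 to -0.154, from -0.475 to -0.342, from -0.501 to -0.225 and from -0.375 to -0.298 in the same order. The cause of these shifts was not tested. With the replicate block the counts were 12 at Agp 45°, 36 at Agp 135°, 25 at Agp 90° and 54 for the average. The residual correlation of same-numbered arrays had a median of -0.00285 over 45 pairs (-0.229 to 0.146). This gave no sign of pairing but cannot exclude a shared batch, and no source says what the numbers mean. Only the largest rises and falls of each comparison were followed gene by gene through the alternatives. Among these, 9 calls at 1 angle were lost under at least 1 alternative (28 pairs of call and alternative), and 0 calls in the averaged comparison. The other named calls of the averaged comparison were not followed. Its count fell to as low as 49 when 1 array was left out, so some of those calls were lost. Several mitochondrial probe sets and *rpoB* lay near the dim end of the array, where the pseudocount shrinks differences.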
